A study of Mus musculus with 7 samples.

Results

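The clustered protocadherins are cell surface adhesion proteins encoded side by side in 3 arrays, alpha, beta and gamma. Their levels were compared between wild-type (WT) mice and HttQ175/+ mice, which have a long CAG repeat knocked into 1 copy of their huntingtin gene, a model of Huntington's disease. Members were all genes whose whole symbol was Pcdha, Pcdhac, Pcdhb, Pcdhga, Pcdhgb or Pcdhgc followed by a number. This gave 56 of the 27998 genes in the files, 13 in the alpha, 22 in the beta and 21 in the gamma cluster. Nuclear RNA came from the striatum of 3 WT and 4 HttQ175/+ male C57BL6/J mice, 1 droplet library per mouse. HttQ175/+ replicate 1 was taken at 15 months of age and all other mice at 14 months. No Cre line, transgene or treatment is named in the labels, and the knock-in allele is carried in all cells of the HttQ175/+ mice. The deposited annotation sorted 4524 nuclei into 12 cell types, including spiny projection neurons (SPNs), the output neurons of the striatum, of the direct (dSPNs) and indirect (iSPNs) pathway.

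Each neuron transcribes a few clustered protocadherin promoters, chosen largely at random and separately on each chromosome copy, while C-type members at the ends of the alpha and gamma clusters are used more widely. The factor CTCF and the cohesin complex loop a distant enhancer to the chosen promoter, and DNA methylation keeps others silent. The proteins bind matching copies on the facing membrane, which lets a neuron tell its own branches from those of other neurons and shapes dendrites and synapses.

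The libraries held 872558 to 2256178 unique molecular identifiers (UMIs, each 1 captured RNA molecule), with a median of 2498 to 2599 per nucleus in WT and 1657 to 2384.5 in HttQ175/+ mice. Members gave 8195 of 10253253 UMIs (0.0799%), of which 587 were alpha, 4522 beta and 3086 gamma. Of the 56 members 5 had under 15 UMIs in all, and Pcdhb1 had 0. Levels are given as CPM, the mean over the nuclei of a mouse and type of each nucleus's UMIs scaled to a total of 1000000. A level per nuclear UMI does not tell more transcription of a gene from less of other RNA. Only 3 barcode sequences occurred in more than 1 library. The SPN identity markers Ppp1r1b, Pde10a, Rgs9 and Bcl11b summed to 7073 to 7589 CPM in the WT mice against 3068 to 3439 CPM in HttQ175/+ dSPNs. Markers of the direct pathway (1011 to 1362 CPM in the WT mice against 656 to 841 CPM in HttQ175/+ dSPNs) stood above those of the indirect pathway (125 to 185 and 86.3 to 130 CPM) in each library, as the label dSPN has it.

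In mm10 all members lie on the forward strand side by side on chromosome 18. The alpha cluster spans chr18:36930184-37187661, the beta cluster chr18:37264938-37524479 and the gamma cluster chr18:37661793-37841873 (257, 260 and 180 kb). What a 3' library can tell apart differs between the clusters. All 22 beta members are single-exon genes in the GENCODE vM21 annotation, and in 20 of them none of the last 500 bases of the transcript lies in a 50-base stretch shared with another gene. The exceptions are Pcdhb21, whose end overlaps the start of Pcdhb22 so that 90% of its last 500 bases are shared, and Pcdhb5 with 3.1%. Every alpha and gamma member is spliced from its own first exon to 3 exons that its cluster shares, so its last exon is 0% its own. Its own share of exonic bases had a median of 46.4% in the alpha and 55.2% in the gamma cluster. Reads from the shared exons cannot be assigned to 1 member, whereas at least 90.3% of the exonic bases of each beta member are its own. Antisense genes overlap several alpha and gamma members, and the sources used here do not state whether counting used strand. Members are alike in sequence, so that values of single members are less certain than sums over a cluster. Where reads from shared exons were assigned to no member, the alpha and gamma sums lack them too. Levels of the alpha, beta and gamma sums are therefore not on 1 scale.

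The beta cluster as a whole was higher in HttQ175/+ SPNs, the gamma cluster was not, and the alpha cluster was higher in dSPNs. In dSPNs the 22 beta members summed to 227, 353 and 189 CPM in WT replicates 1 to 3 and to 671, 639, 548 and 555 CPM in HttQ175/+ replicates 1 to 4. The lowest HttQ175/+ mouse lay well above the highest WT mouse, WT replicate 2. The means were 256 ± 85.7 (SD, n = 3) and 603 ± 61.6 CPM (n = 4), a ratio of 2.35, from 342 and 1746 UMIs. No p-value is given for a sum over members, because they were chosen with results of these data known. With any 1 mouse left out the ratio ranged from 2.08 to 2.90.

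In iSPNs the beta sum was 240, 237 and 192 CPM in the WT mice and 630, 579, 510 and 557 CPM in the HttQ175/+ mice. The groups again did not overlap, with means of 223 ± 26.9 and 569 ± 49.8 CPM and a ratio of 2.55. The ratio stayed between 2.39 and 2.65 with any 1 mouse left out.

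The gamma sum overlapped between genotypes in both neurons. In dSPNs it was 342, 349 and 291 CPM in the WT mice against 320, 304, 402 and 343 CPM in HttQ175/+ mice, means of 327 ± 31.5 and 342 ± 43.2 CPM and a ratio of 1.05. In iSPNs the gamma means were 352 ± 47.8 and 337 ± 15.2 CPM, a ratio of 0.957. The balance of the clusters within a library moved accordingly. Beta UMIs per gamma UMI in dSPNs came to 0.688, 0.991 and 0.634 in WT and 2.19, 2.09, 1.39 and 1.59 in HttQ175/+ mice. In iSPNs the same ratio was 0.617 to 0.726 in WT and 1.63 to 1.92 in HttQ175/+ mice. The genotypes thus did not overlap in either neuron, and this quantity does not depend on how libraries are scaled to each other. Its absolute value does not compare the output of the clusters, because reads from the shared gamma exons cannot be assigned to 1 member.

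**Figure D1:**
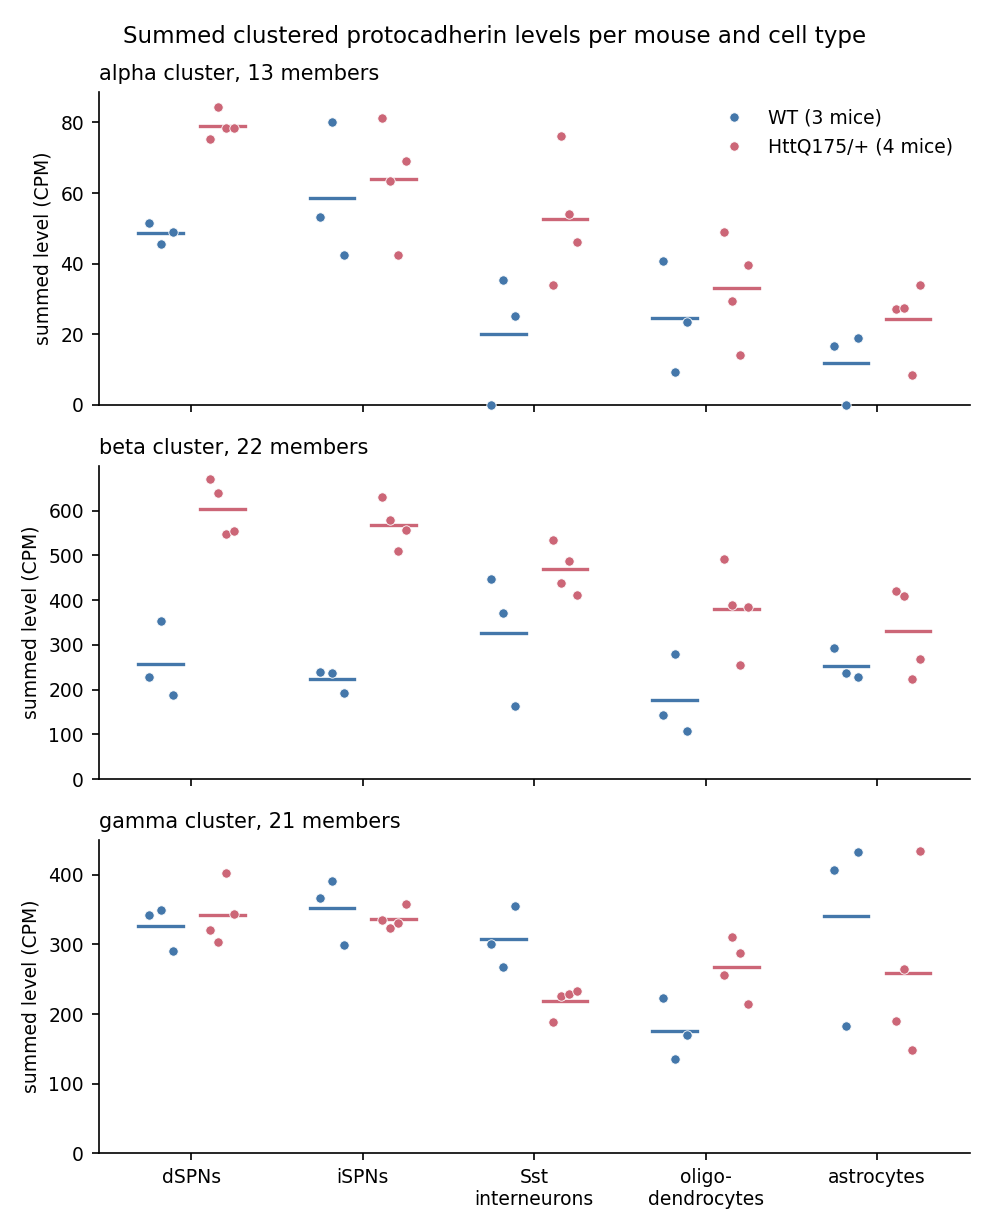
Summed level (CPM, linear axis from 0) of the alpha, beta and gamma clusters in 5 cell types, where each point is 1 mouse and each bar a mean over 3 WT or 4 HttQ175/+ mice. The beta points of both SPN types separate by genotype (189 to 353 against 548 to 671 CPM in dSPNs), while the gamma points of SPNs overlap.

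The alpha sum in dSPNs was 51.6, 45.6 and 49.1 CPM in the WT mice against 75.2, 84.4, 78.3 and 78.4 CPM in HttQ175/+ mice. The groups did not overlap (48.8 ± 3.00 and 79.1 ± 3.83 CPM, a ratio of 1.62), though the sum rests on 70 and 223 UMIs. In iSPNs it overlapped, with means of 58.6 ± 19.3 and 64.0 ± 16.2 CPM and a ratio of 1.09. That ratio fell to 0.960 or reached 1.34 depending on which mouse was left out.

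Single members were tested with limma on log2 levels, with Benjamini-Hochberg adjustment over all genes of a cell type. Changes are log2 ratios of the HttQ175/+ to the WT level, given ± SE on the scale log2(CPM + pseudocount), which understates changes of low genes. In dSPNs 16 members passed the filter on low levels, of which 5 rose at an adjusted p under 0.05 and none fell. Of all 8790 genes tested there, 1.37% rose. Only 1 of the 5 reached the filter level (18.3 CPM) in all 3 WT mice, and the other 4 would not have passed on the WT mice alone. All 5 were among the 9 beta members tested, and none of the 6 gamma members or the 1 alpha member passed with limma or limma-voom. At an unadjusted p under 0.05 the alpha member and 0 gamma members would count. The share of all genes at that cut was not taken, so counts at an unadjusted p have no background here or below. The median change was 0.95 over the tested beta members, -0.18 over the gamma members and 0.01 over all genes. A gene high in only 1 genotype can pass the filter through that genotype, so these counts and medians describe the tested members only.

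Pcdhb14 (chr18:37447656-37456350), the beta member with the most UMIs (648), had groups far apart in dSPNs relative to their spread. It stood at 33.1, 38.9 and 35.8 CPM in the WT mice against 98.2, 86.9, 90.6 and 87.1 CPM in HttQ175/+ mice. Every HttQ175/+ mouse was above every WT mouse, as was true of 7.43% of all genes tested in dSPNs. Its change was 1.12 ± 0.18 (limma adjusted p = 0.00292).

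Pcdhb19 (chr18:37496991-37504128) read 23.0, 29.2 and 12.1 CPM in the WT mice against 76.2, 99.1, 43.3 and 75.0 CPM in HttQ175/+ dSPNs. HttQ175/+ replicate 3 was the lowest of its group and still above all WT mice. The change was 1.51 ± 0.30 (limma adjusted p = 0.00981). The calls of Pcdhb14 and Pcdhb19 in dSPNs held with each of the 7 mice left out in turn.

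The next genes along the array, Pcdhb20, Pcdhb21 and Pcdhb22, also rose in dSPNs, with less margin. Pcdhb20 read 15.6, 30.6 and 11.8 CPM in the WT mice against 73.2, 62.8, 45.5 and 48.7 CPM in HttQ175/+ mice (1.35 ± 0.28, limma adjusted p = 0.0136). Its call was lost without WT replicate 1, WT replicate 3 or HttQ175/+ replicate 1. Pcdhb21 read 9.49, 34.5 and 3.52 CPM in the WT mice against 47.8, 52.7, 49.8 and 46.0 CPM in HttQ175/+ mice (1.67 ± 0.41, limma adjusted p = 0.0351). WT replicate 2 was high for Pcdhb21 as for the beta sum, and the call was lost in 6 of 7 cases with a mouse left out. Pcdhb22, whose start Pcdhb21 overlaps, read 15.7, 27.1 and 14.5 CPM in the WT mice against 47.7, 35.7, 45.3 and 43.8 CPM in HttQ175/+ mice (0.95 ± 0.25, limma adjusted p = 0.0487). Its call was lost in 6 of 7 cases with a mouse left out and under 5 of 8 other settings.

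The other 4 beta members tested in dSPNs did not pass. Pcdhb16 had a change of 0.82 ± 0.23 and Pcdhb17 of 0.90 ± 0.25, with limma adjusted p of 0.0624 and 0.0648. Without scaling beyond the library total both passed. Pcdhb7 and Pcdhb11, which lie nearer the start of the array, had changes of 0.76 ± 0.31 and 0.33 ± 0.31 (limma adjusted p = 0.214 and 0.652).

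**Figure D2:**
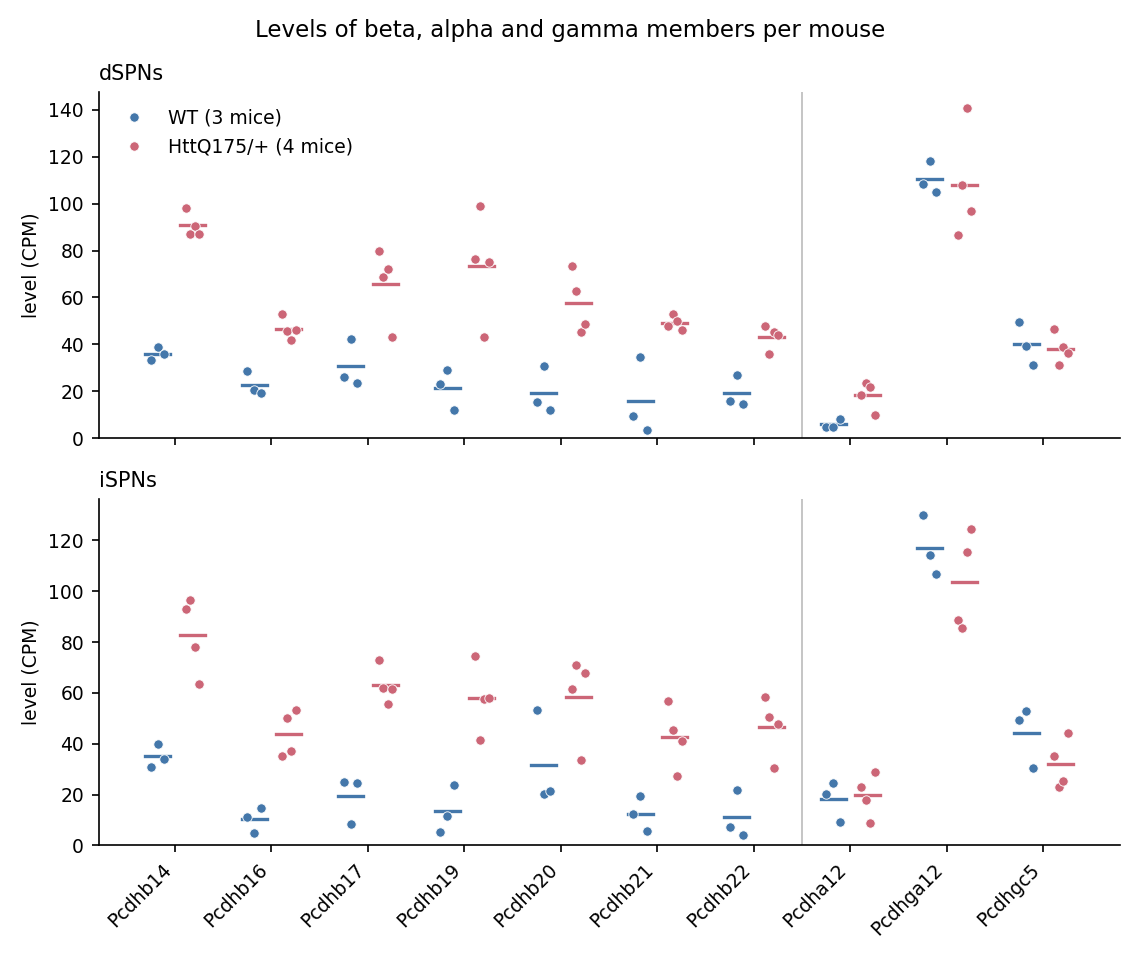
Levels (CPM, linear axis from 0) of 7 beta members, Pcdha12, Pcdhga12 and Pcdhgc5 in dSPNs (top) and iSPNs (bottom), where points are mice and bars are means over 3 WT or 4 HttQ175/+ mice. Pcdhb14 shows groups far apart (33.1 to 38.9 against 86.9 to 98.2 CPM in dSPNs), and the 2 gamma members overlap between genotypes in both neurons.

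In iSPNs, with fewer nuclei (333 in WT and 608 in HttQ175/+ mice, against 513 and 1296 dSPNs), 7 members could be tested and 3 rose. Over all 5894 genes tested there, 0.526% rose. The filter asks for a level worth 10 UMIs (41.6 CPM in iSPNs, over summed UMIs and not the mean over nuclei) in 3 mice. Pcdhb17 and Pcdhb19 reached it in no WT mouse and Pcdhb14 not in all of them, so none of the 3 would have passed on the WT mice alone, and their count gives no support beyond their own values. Pcdhb14 stood at 31.0, 40.1 and 34.1 CPM in the WT mice against 93.1, 96.4, 78.2 and 63.5 CPM in HttQ175/+ mice, a change of 0.96 ± 0.24 (limma adjusted p = 0.0492). Pcdhb17 (chr18:37484795-37489454) read 25.0, 8.45 and 24.5 CPM in the WT mice against 72.9, 61.9, 55.8 and 61.7 CPM in HttQ175/+ mice (1.34 ± 0.33, limma adjusted p = 0.0405). Pcdhb19 read 5.17, 11.7 and 24.0 CPM in the WT mice against 74.6, 41.5, 57.6 and 57.9 CPM in HttQ175/+ mice (1.57 ± 0.38, limma adjusted p = 0.0399). All 3 genes were without overlap between genotypes, as were 5.46% of all genes in the same direction. Yet each lost its call in at least 5 cases with a mouse left out, and limma-voom called 0 of them. Only 0 or 1 member passed in iSPNs with a mouse left out.

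Pooling the nuclei of both SPN types, which shares the same nuclei with the fits above, brought 22 members past the filter. Of these 7 rose, all of the beta cluster, where 2.29% of 9625 genes rose. The filter level (12.7 CPM) was reached in all 3 WT mice by 5 of the 7, Pcdhb21 and Pcdhb22 being the exceptions. They were Pcdhb14 (1.12 ± 0.16), Pcdhb16 (1.13 ± 0.20), Pcdhb17 (1.09 ± 0.19), Pcdhb19 (1.61 ± 0.21), Pcdhb20 (1.08 ± 0.24), Pcdhb21 (1.68 ± 0.37) and Pcdhb22 (1.29 ± 0.26). Their limma adjusted p ran from 0.000639 for Pcdhb19 to 0.0180 for Pcdhb20. The calls of Pcdhb14, Pcdhb16, Pcdhb17, Pcdhb19 and Pcdhb22 held with each mouse left out. That of Pcdhb20 was lost without WT replicate 3, HttQ175/+ replicate 1 or HttQ175/+ replicate 2, and that of Pcdhb21 without WT replicate 1, WT replicate 3 or HttQ175/+ replicate 1.

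Pcdhb16 in the pooled SPNs stood at 22.2, 14.4 and 17.3 CPM in the WT mice against 48.2, 47.3, 40.2 and 48.5 CPM in HttQ175/+ mice. Pcdhb15 was tested only here and missed the threshold (1.26 ± 0.36, limma adjusted p = 0.0586), with 3.96 to 5.64 CPM in the WT mice against 8.47 to 28.6 CPM in HttQ175/+ mice. All WT levels of Pcdhb15 lay below the filter level (12.7 CPM). The tested members from the start of the array, Pcdhb6, Pcdhb7, Pcdhb9 and Pcdhb11, had changes of 0.32 to 0.65, none past the threshold.

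The tested and the untested beta members moved the same way as sums. The 13 beta members too low to test in dSPNs summed to 56.7 ± 26.9 CPM in the WT mice against 119 ± 15.5 CPM in HttQ175/+ mice, a ratio of 2.11 without overlap. In iSPNs the 17 below the filter gave a ratio of 2.32. The sum of the beta members that were not called had ratios of 2.00 in dSPNs, 2.36 in iSPNs and 1.95 in the pooled SPNs, each with all HttQ175/+ mice above all WT mice.

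Along the array the second stretch had the larger ratio. Pcdhb1 to Pcdhb13 summed to 80.9 ± 29.7 and 152 ± 12.3 CPM in dSPNs (ratio 1.88), and Pcdhb14 to Pcdhb22 to 175.4 ± 56.1 and 451 ± 51.5 CPM (2.57). The same ratios were 1.84 and 2.92 in iSPNs. The point of division was chosen after the values were seen, and the difference between the stretches was not tested.

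**Figure D3:**
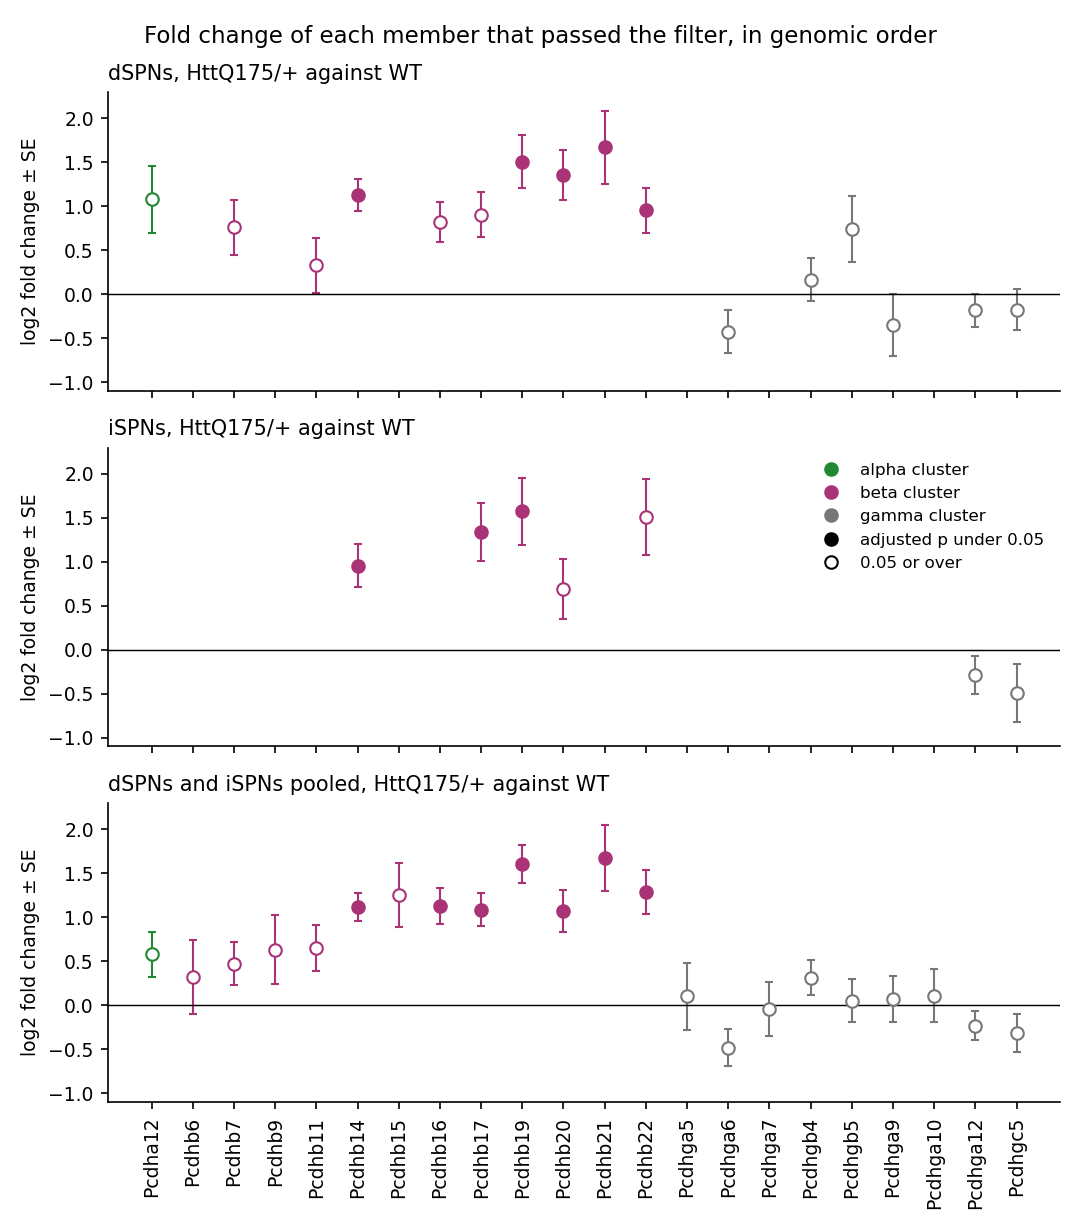
Log2 fold change (HttQ175/+ over WT, points, with bars of 1 SE) of each member past the filter, in genomic order, in dSPNs, iSPNs and both pooled. Filled points have an adjusted p under 0.05, and all of them are beta members from Pcdhb14 onward, with changes of 0.95 to 1.68.

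Counting direction over every member with a UMI, with no filter, 21 of 21 beta members had a higher mean in HttQ175/+ dSPNs, against 11 of 21 gamma and 9 of 13 alpha members. Of all 17076 genes with a UMI in dSPNs, 63.5% had a higher mean, so the gamma count lies below the background and the alpha count near it. Of the beta members 10 had every HttQ175/+ mouse above every WT mouse, as had 2 alpha and 0 gamma members, where 8.87% of all genes did. In iSPNs 19 of 21 beta members had the higher mean, Pcdhb6 and Pcdhb10 being the exceptions, against 61% of all genes, and 11 did not overlap, against 6.4%. In the pooled SPNs 21 of 21 were higher (all genes 64%) and 14 did not overlap (10.6%).

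**Figure D4:**
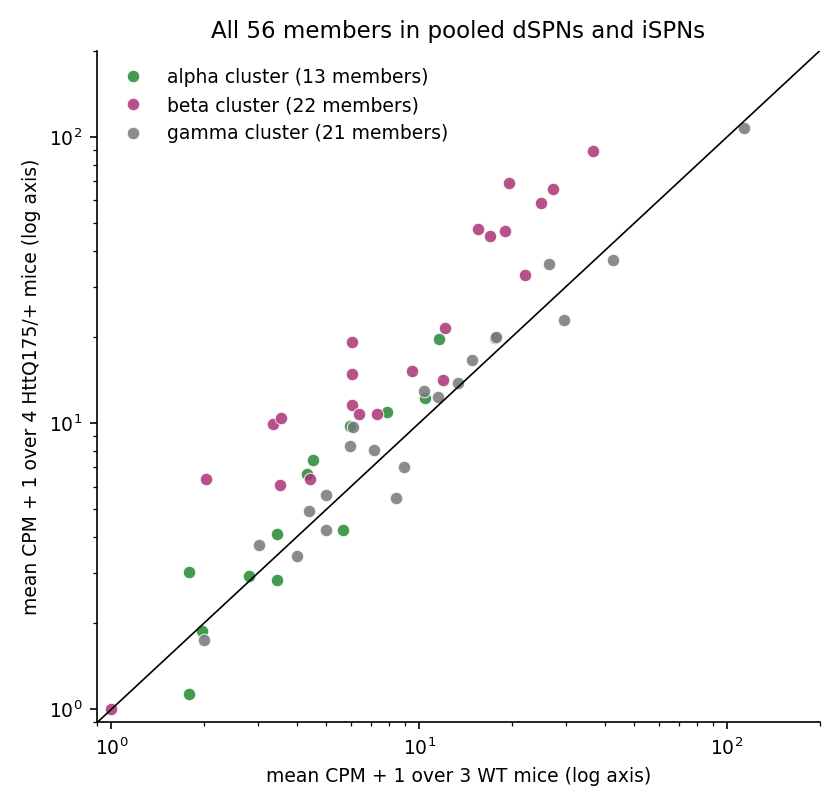
Mean CPM + 1 of each of the 56 members over 4 HttQ175/+ mice (vertical) against 3 WT mice (horizontal) in pooled dSPNs and iSPNs, on log axes with the line of equal levels. All 21 beta members with a UMI lie above the line, whereas gamma members lie on both sides of it (13 of 21 above).

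Among gamma members, Pcdhga12 (chr18:37765580-37841873) had the most UMIs of all 56 members (970, or 213 per kb of exon that no other gene shares). It stood at 108, 118 and 105 CPM in the WT mice against 86.7, 108, 141 and 96.7 CPM in HttQ175/+ dSPNs. The change was -0.18, with a 95% interval of -0.59 to 0.22 (limma adjusted p = 0.676), an interval that leaves out rises of the size seen for Pcdhb14. In iSPNs it was -0.29 (-0.75 to 0.17, limma adjusted p = 0.601). Pcdhgb4 (289 UMIs) had a change of 0.16 ± 0.24 in dSPNs (limma adjusted p = 0.789).

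In the pooled SPNs 9 gamma members were tested and 0 passed with limma or limma-voom, and 1 had an unadjusted p under 0.05. This was Pcdhga6, at 28.0, 30.4 and 27.1 CPM in the WT mice against 19.7, 24.8, 18.6 and 24.4 CPM in HttQ175/+ mice. All 4 HttQ175/+ mice were lower, as was true of 9.88% of all genes tested, and the change was -0.48 ± 0.21 (limma adjusted p = 0.215). The 9 changes ran from -0.48 to 0.32 with a median of 0.05.

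The C-type members, which neurons use more widely than the rest, were few in counts here except for Pcdhgc5. Over all nuclei Pcdhac1 had 13, Pcdhac2 42, Pcdhgc3 58 and Pcdhgc5 335 UMIs. Pcdhgc5 stood at 49.5, 39.2 and 31.1 CPM in the WT mice against 46.5, 31.3, 38.7 and 36.1 CPM in HttQ175/+ dSPNs. The groups overlapped, with a change of -0.18 ± 0.23 (limma adjusted p = 0.761), and in iSPNs of -0.49 ± 0.33 (limma adjusted p = 0.543). The C-type sum in dSPNs was 50.8 ± 10.6 in WT and 48.1 ± 8.61 CPM in HttQ175/+ mice. In oligodendrocytes, the myelin-forming glia, the C-type sum was 5.55 to 16.1 CPM in the WT mice against 32.6 to 36.6 CPM in HttQ175/+ mice, from 3 and 29 UMIs.

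Of the alpha cluster Pcdha12 alone could be tested. It had 123 UMIs in all, followed by Pcdha5 with 94 and Pcdha4 with 79. In dSPNs Pcdha12 read 4.62, 4.92 and 8.17 CPM in the WT mice against 18.4, 23.7, 21.9 and 9.80 CPM in HttQ175/+ mice. All WT levels lay below the filter level (18.3 CPM), so Pcdha12 was tested only through HttQ175/+ mice. The groups did not overlap, as was true of 7.43% of all genes tested in dSPNs in this direction. The change of 1.08 ± 0.38 did not pass (limma adjusted p = 0.145, unadjusted p = 0.0129). In the pooled SPNs it was 0.58 ± 0.26 (limma adjusted p = 0.227). Without Pcdha12 the ratio of the alpha sum in dSPNs was 1.41 in place of 1.62.

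Whether the genotype effect differs between dSPNs and iSPNs was tested with mouse as a block. Of 14 members tested 0 passed, and 0 had an unadjusted p under 0.05. Over all 8686 genes 0.0115% passed. The difference (dSPNs minus iSPNs) was 0.09 for Pcdhb14, with a 95% interval of -0.55 to 0.74. For Pcdhb19 it was -0.31 (-1.30 to 0.67) and for Pcdhb17 -0.59 (-1.46 to 0.28). All 3 intervals span 0 and are more than 1 log2 unit wide.

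Outside SPNs the counts were small. With each mouse weighted equally, the beta mean was higher in HttQ175/+ mice in 12 of 12 cell types, by ratios from 1.31 in astrocytes to 5.87 in microglia (median 2.18), but without overlap between mice in only 3 of them, dSPNs, iSPNs and the Pnoc and Pvalb interneurons. Taken as CPM over all nuclei of a genotype it was also higher in 12 of 12, by ratios from 1.48 in cholinergic interneurons to 3.19 in microglia (median 2.09). The gamma direction turned with the weighting. By means over mice it was higher in 7 of 12 types, with a median ratio of 1.04, and over all nuclei in 4 of 12, with a median ratio of 0.893. The alpha cluster was higher in 12 of 12 either way, on 587 UMIs in all, with a median ratio over the 10 types in which WT nuclei had any of 1.74 over mice and 1.70 over nuclei. In microglia, the immune cells of the brain, the beta level rested on 5 WT UMIs (153 CPM, 95% counting interval 49.6 to 356) and 75 HttQ175/+ UMIs (487 CPM, 383 to 610). These intervals are exact Poisson intervals and cover counting error only. Types without at least 10 nuclei in 3 mice of each genotype were not tested, and types of 1 mouse share a library.

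By mouse, the beta sum in oligodendrocytes was 144, 281 and 108 CPM in the WT mice against 492, 389, 255 and 385 CPM in HttQ175/+ mice. The groups overlapped through WT replicate 2 and HttQ175/+ replicate 3 (177 ± 91.2 and 380 ± 97.0 CPM, ratio 2.14). In astrocytes the means were 253 ± 36.0 and 330 ± 99.97 CPM, and in Sst interneurons, which release somatostatin, 327 ± 147 and 469 ± 54.5 CPM, with overlap in both.

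The gamma sum went the other way in Sst interneurons. It was 300, 268 and 356 CPM in the WT mice against 189, 226, 228 and 234 CPM in HttQ175/+ mice, a ratio of 0.712, with all 4 HttQ175/+ mice lower on 58 and 98 UMIs. In oligodendrocytes the only member past the filter was Pcdhga12 (0.29 ± 0.35, limma adjusted p = 0.802, where 0.687% of genes passed). No member passed the filter in astrocytes or Sst interneurons, so no member was tested there.

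Among cell types of the WT mice, few members could be compared and 0 of them passed. Between dSPNs and iSPNs 4 members were tested, and 1.53% of all genes passed. Pcdhb14 differed by 0.04 ± 0.35, Pcdhga6 by 0.36 ± 0.40, Pcdhga12 by -0.07 ± 0.22 and Pcdhgc5 by -0.12 ± 0.32 (dSPNs minus iSPNs), each with a limma adjusted p of at least 0.880. Pcdhga12 differed by 0.59 ± 0.48 between dSPNs and astrocytes and by 0.53 ± 0.33 between dSPNs and oligodendrocytes, where 30.5% and 28% of genes passed. None of these had an unadjusted p under 0.05.

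Droplets also capture RNA set free by other nuclei, and the SPN identity markers gauge how much SPN RNA is in a type. In WT oligodendrocytes the summed SPN markers stood at 31.5% of their dSPN level, while the beta sum stood at 69.2%, the gamma sum at 53.7% and the alpha sum at 50.3%. In HttQ175/+ oligodendrocytes these were 51.7%, 63.0%, 78.0% and 41.7%. In WT astrocytes the SPN markers stood at 14.8% of their dSPN level against 98.7% for beta, 104% for gamma and 24.3% for alpha. In HttQ175/+ astrocytes the values were 33.7%, 54.8%, 75.8% and 30.7%. Microglia lay the other way, with SPN markers at 65.0% in WT and 76.2% in HttQ175/+ mice against 25.8% and 64.3% for beta. In both genotypes the beta sum was a larger share of the dSPN level than the SPN markers in every type but iSPNs, SPNs of unknown subtype and microglia, and how much of each came from free RNA was not tested.

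Median depth was lower in HttQ175/+ dSPNs and iSPNs than in WT ones. It was higher in HttQ175/+ oligodendrocytes (2167 against 1972 UMIs) and astrocytes (1923.5 against 1417.5 UMIs). To set aside these differences, each nucleus was thinned to 1000 UMIs. The share of dSPNs with at least 1 beta UMI was then 22.1%, 31.9% and 19.0% in WT and 43.9%, 46.6%, 38.4% and 42.4% in HttQ175/+ mice. The means were 24.4 ± 6.74% and 42.8 ± 3.40% (44.7% and 65.6% unthinned, at median depths of 2753 and 2007.5 UMIs). In iSPNs they were 20.9% and 40.0% (40.4% and 60.9% unthinned). In both neurons no WT mouse reached the lowest HttQ175/+ mouse.

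The share with a gamma UMI overlapped, at 27.7 ± 3.79% and 28.1 ± 4.42% of thinned dSPNs, where unthinned shares were 57.9% and 49.3%. The thinned alpha share in dSPNs was 3.49 ± 1.65% and 8.66 ± 0.540%, without overlap. In thinned astrocytes 23.8% of WT and 25.8% of HttQ175/+ nuclei had a beta UMI, so the share in WT SPNs was at about the level of WT astrocytes. In thinned oligodendrocytes the beta shares were 15.5% and 31.2%, with overlap. They did not overlap in SPNs of unknown subtype (5.56% and 33.9%) and microglia (4.76% and 34.9%), on only 11 and 13 WT nuclei. The remaining types overlapped.

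At equal depth, more SPNs and oligodendrocytes also held several members at once. The share of thinned dSPNs with UMIs of 2 or more members was 13.2 ± 5.28% in WT and 26.4 ± 1.77% in HttQ175/+ mice, without overlap. It was 15.6% and 26.5% in iSPNs and 6.88% and 17.3% in oligodendrocytes, also without overlap. In astrocytes (11.6% and 10.9%) and Sst interneurons (16.8% and 16.6%) it overlapped. At this depth a nucleus shows only a part of the members it transcribes, so these shares do not count the promoters in use.

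**Figure D5:**
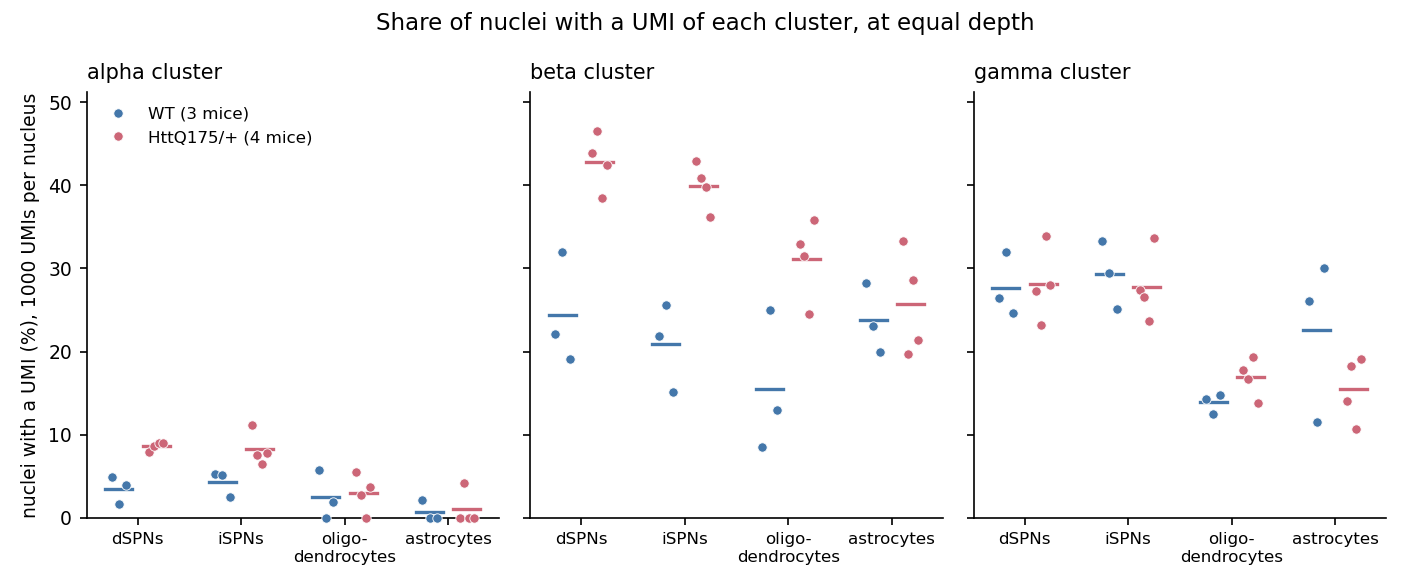
Share of nuclei (%, linear axis from 0) with at least 1 UMI of the alpha, beta or gamma cluster after thinning each nucleus to 1000 UMIs, where points are mice and bars are means over 3 WT or 4 HttQ175/+ mice. In SPNs the beta shares separate by genotype (19.0% to 31.9% against 38.4% to 46.6% in dSPNs), and the gamma shares overlap.

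Markers of other cells were read in the same dSPNs. Summed markers of cortical excitatory neurons were 3.12 to 10.1 CPM in the WT mice against 18.3 to 39.5 CPM in HttQ175/+ dSPNs, of which 1 of 4 genes, Neurod2, was higher in all HttQ175/+ mice. Those of eccentric SPNs were 28.4 to 54.7 and 76.5 to 110 CPM, and those of neural progenitors and neuroblasts 55.4 to 78.6 and 99.8 to 148 CPM. Markers of Pvalb and Pnoc interneurons were 1.91 to 2.87 and 3.68 to 5.13 CPM. Single genes higher in all HttQ175/+ mice were 1 of 4 for eccentric SPNs (Col11a1) and 2 of 4 for progenitors (Dcx and Sox11). For Pvalb and Pnoc interneurons they were 0 of 4. Of all genes with a UMI in dSPNs, 8.87% were higher in all HttQ175/+ mice. Summed markers of Sst and cholinergic interneurons, astrocytes, oligodendrocytes, their progenitors, microglia and vessels overlapped between genotypes. The part of these markers in the beta result was not tested.

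Genes that act on or with the clusters were read from lists. Of 22 genes of promoter choice and chromatin at the locus, 19 were tested in dSPNs and 0 passed with limma or limma-voom, while 2 had an unadjusted p under 0.05. The list's median change was 0.03. Ctcf stood at 103 ± 21.5 CPM in the WT mice against 124 ± 22.6 CPM in HttQ175/+ dSPNs, with overlap. Smchd1, a chromatin protein that helps keep clustered protocadherin promoters silent, stood at 136 ± 7.88 and 155 ± 29.7 CPM, also with overlap.

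Of 18 intracellular partners, 17 were tested in dSPNs and 2 fell, where 2.61% of all genes fell. The cytoplasmic tails of protocadherins can recruit the WAVE complex, which drives actin branching, and both genes encode subunits of it. The other tested genes of that complex did not pass in dSPNs and lay both ways: Cyfip1 at 0.33, Abi1 at 0.14, Abi2 at -0.11, Brk1 at -0.18, Wasf1 at -0.40, Wasf2 at -0.18 and Wasf3 at -0.17. Nckap1 (chr2:80500512-80581380) read 180, 148 and 172 CPM in the WT mice against 86.4, 74.7, 99.96 and 104 CPM in HttQ175/+ dSPNs, a change of -0.98 ± 0.18 (limma adjusted p = 0.00597). Cyfip2 (chr11:46193850-46312859) read 242, 213 and 244 CPM in the WT mice against 151, 139, 127 and 158 CPM in HttQ175/+ dSPNs (-0.82 ± 0.16, limma adjusted p = 0.00902). Neither gene overlapped between genotypes, and 8.83% of all genes tested in dSPNs lay lower in this way. Nckap1 also fell in iSPNs (-0.90, limma adjusted p = 0.0291), where 1.87% of genes fell. That was a call lost in 6 of 7 cases with a mouse left out, while Cyfip2 there had a limma adjusted p of 0.0826. The median change of the list was -0.17.

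Enzymes that cut protocadherins at the surface, with neuroligin partners, gave 8 tested genes in dSPNs, of which 0 passed with limma or limma-voom and 0 had an unadjusted p under 0.05. Among 7 tested protocadherins encoded outside the clusters, 1 rose in dSPNs, where 1.37% of all genes rose. Pcdh11x (X chromosome) read 65.9, 79.1 and 31.4 CPM in the WT mice against 124, 134, 116 and 142 CPM in HttQ175/+ dSPNs (1.04 ± 0.25, limma adjusted p = 0.0307), a call lost in 5 of 7 cases with a mouse left out. In the pooled SPNs Pcdh19, an X-linked protocadherin known for its role in a form of epilepsy, rose as well, where 2.29% of all genes rose. It read 2.32, 4.05 and 8.21 CPM in the WT mice against 32.4, 19.9, 21.8 and 20.9 CPM in HttQ175/+ mice (1.78 ± 0.33, limma adjusted p = 0.00639). No WT mouse reached the filter level of the pooled SPNs (12.7 CPM), so Pcdh19 was tested only through HttQ175/+ mice. Its call gives no support beyond its own values.

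Of 14 tested neighbours of the locus 1 rose in dSPNs, where 1.37% of all genes rose, and the median change was 0.07. In the pooled SPNs 0 of 14 passed with limma or limma-voom, and 3 had an unadjusted p under 0.05, Rell2 (0.53 ± 0.15) and Taf7 higher and Tmco6 (-0.70 ± 0.24) lower. Rell2 (chr18:37955079-37959179), beyond the gamma end, read 78.6, 67.9 and 66.6 CPM in the WT mice against 117, 130, 125 and 133 CPM in HttQ175/+ dSPNs (0.66 ± 0.17, limma adjusted p = 0.0408). This call was lost with each of the 7 mice left out. Taf7 (chr18:37640491-37644204), a general transcription factor gene between the beta and gamma clusters, read 21.0, 37.0 and 26.5 CPM in the WT mice against 45.9, 44.6, 29.9 and 37.9 CPM in HttQ175/+ dSPNs (0.33 ± 0.25, limma adjusted p = 0.543). In iSPNs Taf7 lay at 29.3, 16.9 and 21.0 CPM in the WT mice against 60.3, 53.5, 40.2 and 52.0 CPM in HttQ175/+ mice, without overlap (0.88 ± 0.31, limma adjusted p = 0.177). In the pooled SPNs it lay at 24.1, 29.0 and 24.2 CPM in the WT mice against 49.8, 47.6, 33.5 and 42.4 CPM in HttQ175/+ mice, again without overlap (0.56 ± 0.20, limma adjusted p = 0.134). Neither change passed, and in dSPNs the groups overlapped. Of all genes with a UMI, 6.4% in iSPNs and 10.6% in the pooled SPNs lay higher without overlap.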

How the data were processed

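Single nuclei of the striatum were profiled with version 3 of the Chromium 3' kit, per the labels' protocols. The authors used Cell Ranger 3.0.2, Seurat and mm10, per the submitters' processing notes. They deposited, for each nucleus, the natural log of 1 plus UMIs per 10000, which is not a count. The main fits therefore used no count model. Whole UMIs could be recovered from the deposited natural log values (100% of 5824756 values whole within 0.02). Limma-voom on sums of these recovered UMIs served as an alternative. Cell types and the genotype of each nucleus came from the other deposited annotation columns. A deposited table of smoothed values was not used here. The labels pair no mice across genotypes and do not say whether mice were littermates.

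CPM was averaged per mouse and type, scaled by TMM for the fits, and log2-transformed after adding a pseudocount worth 2 UMIs (3.67 CPM in dSPNs, 8.31 in iSPNs, 2.54 pooled). Genes needed 15 UMIs in all and a level worth 10 UMIs in at least 3 mice. A type was tested with 10 or more nuclei in at least 3 mice of each genotype, which 5 of 12 types had. Tests were limma 3.58.1 (R 4.3.3, limma-trend) with Benjamini-Hochberg adjustment over all genes of a fit and a threshold of 0.05. The scripts ran in Python 3.11.15 with numpy 2.4.6, pandas 2.3.3, scipy 1.17.1, scanpy 1.11.5 and matplotlib 3.10.9, and the fits were tested on simulated data. Scrublet marked 60 of 4524 nuclei (1.33%) as doublets, 31 of them in HttQ175/+ replicate 3, and they were kept except in an alternative.

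Named members were those past the threshold in any fit, the 3 with the most UMIs per cluster and the C-type members. Named beside them, outside that rule, are members tested or placed next to these. Up to 4 passing genes per other list were named. Ctcf, Smchd1, Taf7, Tmco6 and the other tested genes of the WAVE complex were named by choice. Members and lists were chosen with earlier results of these data known. Gene models came from GENCODE vM21 on mm10. Pcdhgc4 was not analysed here.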

Additional observations from a re-analysis of the deposited data

How the results depend on the processing

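Each result was recomputed with other pseudocounts, filters, scaling, sums of UMIs in place of means over nuclei, limma-voom, doublets left out and each mouse left out. Members past the threshold numbered 2 to 6 in dSPNs (5 with all mice), 0 to 1 in iSPNs (3) and 5 to 8 in the pooled SPNs (7) with a mouse left out. In iSPNs the count was 1 with a pseudocount worth 1 UMI, 1 with the filter on the mean over 7 mice, 0 with limma-voom and 1 without doublets. Between WT dSPNs and oligodendrocytes 3 members passed with no filter beyond 1 UMI, against 0. Without scaling beyond the library total the median change of all genes moved from 0.01 to 0.14 in dSPNs, and calls went from 120 higher and 229 lower to 223 and 161. In iSPNs they went from 31 and 110 to 43 and 74, and in the pooled SPNs from 220 and 382 to 397 and 237, while 7, 3 and 8 members passed. The alpha ratio in dSPNs (1.62) was 1.41 without Pcdha12, 1.47 after TMM scaling and 1.48 with the repeated symbol Pcdha11.1 counted, an alternative chosen after seeing the data. All cluster sums above are CPM before TMM scaling. The TMM factors in dSPNs were 0.933 to 0.971 in WT and 1.03 to 1.06 in HttQ175/+ mice. Dividing by them lowers the beta and gamma ratios in dSPNs as well. The thinned alpha share in iSPNs was higher in HttQ175/+ mice, but the unthinned ratio was 0.960. Signs of log2 changes turned only for changes that had not passed. Nckap1 in astrocytes became 0.035 with a pseudocount worth 5 UMIs, 0.079 with no filter, 0.090 with no scaling, 0.12 with sums and 0.0064 with the filter on the mean. Pcdhb14 between WT dSPNs and iSPNs became -0.12 with sums. With a mouse left out, the ranges crossing 0 were -0.014 to 0.30 for Pcdhgb4 in dSPNs, -0.56 to 0.13 for Cyfip2 in oligodendrocytes and -0.60 to 1.13 in Sst interneurons. For the difference of genotype effects they were -0.92 to 0.023 for Pcdhb17, -0.98 to 0.16 for Pcdhb19 and -0.014 to 0.53 for Pcdhb21, and between WT neurons -0.0015 to 0.089 for Pcdhb14 and -0.20 to 0.029 for Pcdhgc5. The cause of these moves was not tested. No paired analysis was possible because no label ties a WT mouse to an HttQ175/+ mouse. Depth limits single members: 5 of 56 had under 15 UMIs.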

Other observations

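The naming rule leaves out genes carried under repeated symbols. Pcdha11.1 (227 UMIs) had a log2 change of 0.13 ± 0.25 in dSPNs (limma adjusted p = 0.849) and 0.15 ± 0.21 in the pooled SPNs (limma adjusted p = 0.775). Pcdhga8.1 (329 UMIs) stood at 54.4, 34.2 and 35.6 CPM in WT and 26.1, 34.0, 26.6 and 30.1 CPM in HttQ175/+ pooled SPNs. All HttQ175/+ mice were lower, as was true of 9.88% of all genes tested there. The change of -0.58 ± 0.21 did not pass (limma adjusted p = 0.147). In dSPNs alone Pcdhga8.1 overlapped between genotypes, with a change of -0.17 ± 0.23 (limma adjusted p = 0.765). Which locus each repeated symbol stands for was not settled here.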
